A study of Homo sapiens with 4 samples.

Results

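The peaks described here lie in the emptiest stretches of the gene map: their summits are more than 250 kb from every RefSeq gene, and each was called in only 1 of 2 peak lists, made with an antibody against FLAG or an antibody against SMAD3. They were picked by position and by the lack of any overlap (1 bp or more) with a peak of the other list. Pileup, fold enrichment, q and clustering played no part in the choice. The rule found 1871 peaks in the FLAG list, of 9094 on chromosomes 1 to 22 and X (20.6%, 95% Clopper-Pearson interval 19.7 to 21.4%). In the SMAD3 list it found 671 of 6972 (9.62%, 8.94 to 10.3%). Together these are 2542 of the 16066 peaks on those chromosomes, and of 16650 in the series. They are called far list-specific peaks below.

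All libraries came from A549, a human lung adenocarcinoma cell line, stably transduced with ATOH8 by a retrovirus. There were 4 libraries: a FLAG ChIP, a SMAD3 ChIP and an input for each, with 1 library per group. Cells without the ATOH8 transgene were not analysed here, so no value below is an effect of ATOH8. The FLAG ChIP is read as tagged ATOH8, a basic helix-loop-helix transcription factor, because the title and design of the series imply it. SMAD3 is the transcription factor that carries TGF-beta receptor signals into the nucleus.

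Each human chromosome has a centromere, where the kinetochore forms and the spindle attaches at cell division. Centromeric DNA is built of long arrays of alpha satellite, a tandem repeat, flanked by other satellites and by duplicated segments, and it holds very few genes. Because copies of a repeat are nearly alike, short reads from these arrays are hard to assign to 1 place, and the reference genome shows part of the arrays as models. Gene deserts on chromosome arms are another kind of gene-free stretch: mostly single-copy DNA, often beside genes of development or of the nervous system, and at times with distant enhancers.

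The reads of the ChIP libraries were of like depth, at 17133946 tags (FLAG) and 16857119 tags (SMAD3) after duplicates were removed, per the file headers. Pileup is the number of ChIP tags, each extended to the fragment length, stacked at the summit. Fragments were modelled as 241 bp for FLAG and 203 bp for SMAD3, so a given tag density gives a somewhat higher pileup in the FLAG list. Fold enrichment is the authors' ratio of pileup to local background, and the background behind it, here named the implied input background, was worked out from both columns. Its lowest values, 1.53 tags (FLAG) and 1.27 tags (SMAD3), equal the mean ChIP coverage of the effective genome. They are a floor, and values there are not counts of input tags at the site. Intervals cover counting error only. With a single library per antibody no test between conditions was possible, and neighbouring peaks are not independent.

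The distance limit by itself leads mostly to centromeres: of the territory more than 250 kb from every gene, 158 Mb lay in gene-free intervals within 5 Mb of a centromere and 16.2 Mb in intervals farther away. The intervals close to a centromere were counted whole. They can reach farther than 5 Mb from it and may include positions without sequence, so 158 Mb is an upper bound. In the FLAG list 1861 of 1871 (99.5%, 99.0 to 99.7%) had a summit within 5 Mb of a centromere, and in the SMAD3 list 661 of 671 (98.5%, 97.3 to 99.3%). Of the other peaks of each list, nearly all within 250 kb of a gene, 13.8% (FLAG) and 11.1% (SMAD3) lay that close, and the rule sets much of that contrast. Most were inside the centromere models themselves, with 1782 FLAG peaks (95.2%) and 641 SMAD3 peaks (95.5%) at distance 0. Centromere positions were rounded to 100 kb. Counted by the uninterrupted gene-free interval that holds the midpoint of each centromere, the shares were 97.6% and 97%. That count uses the same positions, but only to choose the interval. Such an interval was the longest gene-free stretch of its chromosome on 20 of 23 chromosomes.

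Each of the 23 chromosomes held such peaks in each list, but unevenly. The FLAG list had most on chromosomes 5 (164 peaks), 19 (152), 1 (144), 20 (141) and 9 (134), which together held 39.3% of its far list-specific peaks. The SMAD3 list had most on chromosomes 20 (62), 5 (55), 12 (55), 19 (48) and 1 (47), or 39.8%. Both lists had few on chromosomes 15 (25 and 3), 17 (12 and 9) and X (16 and 6). On chromosome 22 these peaks made up 50.6% of all FLAG peaks, and on chromosome 19 they made up 47.4%. On chromosome 17 they were 3.85% of FLAG peaks. The highest share in the SMAD3 list was 36.4%, on chromosome 13.

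**Figure D1:**
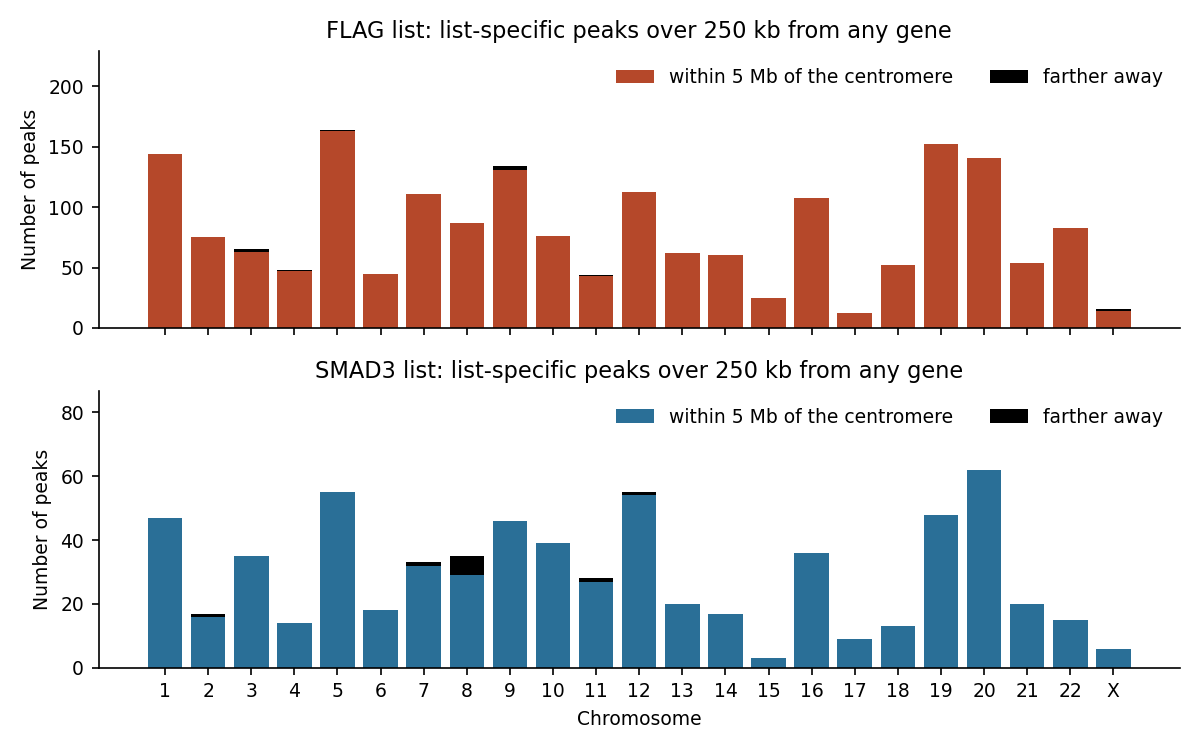
Number of far list-specific peaks on each chromosome (x axis) in the FLAG list (top) and the SMAD3 list (bottom), with coloured bars for summits within 5 Mb of the centromere and black for all others. Chromosome 5 leads the FLAG list with 164 peaks and chromosome 20 the SMAD3 list with 62, and the largest black part is that of the 6 SMAD3 peaks on chromosome 8.

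FLAG peaks outnumbered SMAD3 peaks 2.79 to 1 over all chromosomes, so that 73.6% (71.8 to 75.3%) of far list-specific peaks came from the FLAG list. Chromosomes ranked much the same in both lists (Spearman 0.87, n = 23 chromosomes). Those points share the reference sequence and the cells, so the coefficient is a description. The FLAG share was 84.7% (76.0 to 91.2%) on chromosome 22, with 83 FLAG and 15 SMAD3 peaks, and 61.1% (48.9 to 72.4%) on chromosome 11, with 44 and 28. These were the only chromosomes, 1 above and 1 below, whose interval left out the overall share. No test of this difference was run.

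On chromosome 5 the FLAG peaks near the centromere spanned 4.16 Mb, or 39.2 per Mb, and the SMAD3 peaks 4.09 Mb, or 13.4 per Mb. The median pileup there was 22 tags in the first list and 12 in the second. Spans were also alike on some other chromosomes, such as 1.78 Mb (FLAG) and 1.81 Mb (SMAD3) on chromosome 20. They were 5.28 and 2.74 Mb on chromosome 3, and 3.58 and 1.77 Mb on chromosome 16. There the FLAG list had 2 (chromosome 3) and 5 (chromosome 16) peaks in separate intervals without a SMAD3 peak of the kind. Within the interval that holds the centromere the spans were 1.80 and 1.80 Mb on chromosome 3, and 1.87 and 1.77 Mb on chromosome 16.

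The chromosome 19 interval lies between LOC124904678 and LOC105372345, and its nearest protein-coding genes are ZNF254, a zinc finger gene, and UQCRFS1, the Rieske iron-sulphur subunit of respiratory complex III (chr19:24179012-27681071). It held 152 FLAG peaks with a median pileup of 19.5 tags (6 to 135) and 48 SMAD3 peaks with a median of 13 (6 to 107). On chromosome 1 the interval between EMBP1, an embigin pseudogene, and LOC101929814 is 21.7 Mb long (chr1:121571889-143299517). Its 144 FLAG peaks spanned 2.92 Mb and its 47 SMAD3 peaks 3.24 Mb. The interval may include positions without sequence, where no peak can be called, so these spans cannot be set against its length. Chromosome 20 was the densest. Between LOC124904967 and FRG1CP (chr20:26251589-28580632) stood 141 FLAG peaks at 79.2 per Mb and 62 SMAD3 peaks at 34.2 per Mb.

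On chromosome 9 the interval from LOC102724904 to CNTNAP3P4, a contactin-associated pseudogene (chr9:43139881-60832661), held 134 FLAG peaks with a median pileup of 14 tags and 46 SMAD3 peaks with a median of 11. Of the FLAG peaks, 3 stood apart from the others at the far end of this 17.7 Mb interval, which may also include positions without sequence. On chromosome 12 the interval from AK6P1 to ZNF970P lies between ALG10 and ALG10B, a pair of glucosyltransferase genes of protein glycosylation (chr12:34250266-37575342). It held 54 SMAD3 peaks, at a median pileup of 10 tags, and 113 FLAG peaks, at 14. The plot of positions shows these bands chromosome by chromosome.

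**Figure D2:**
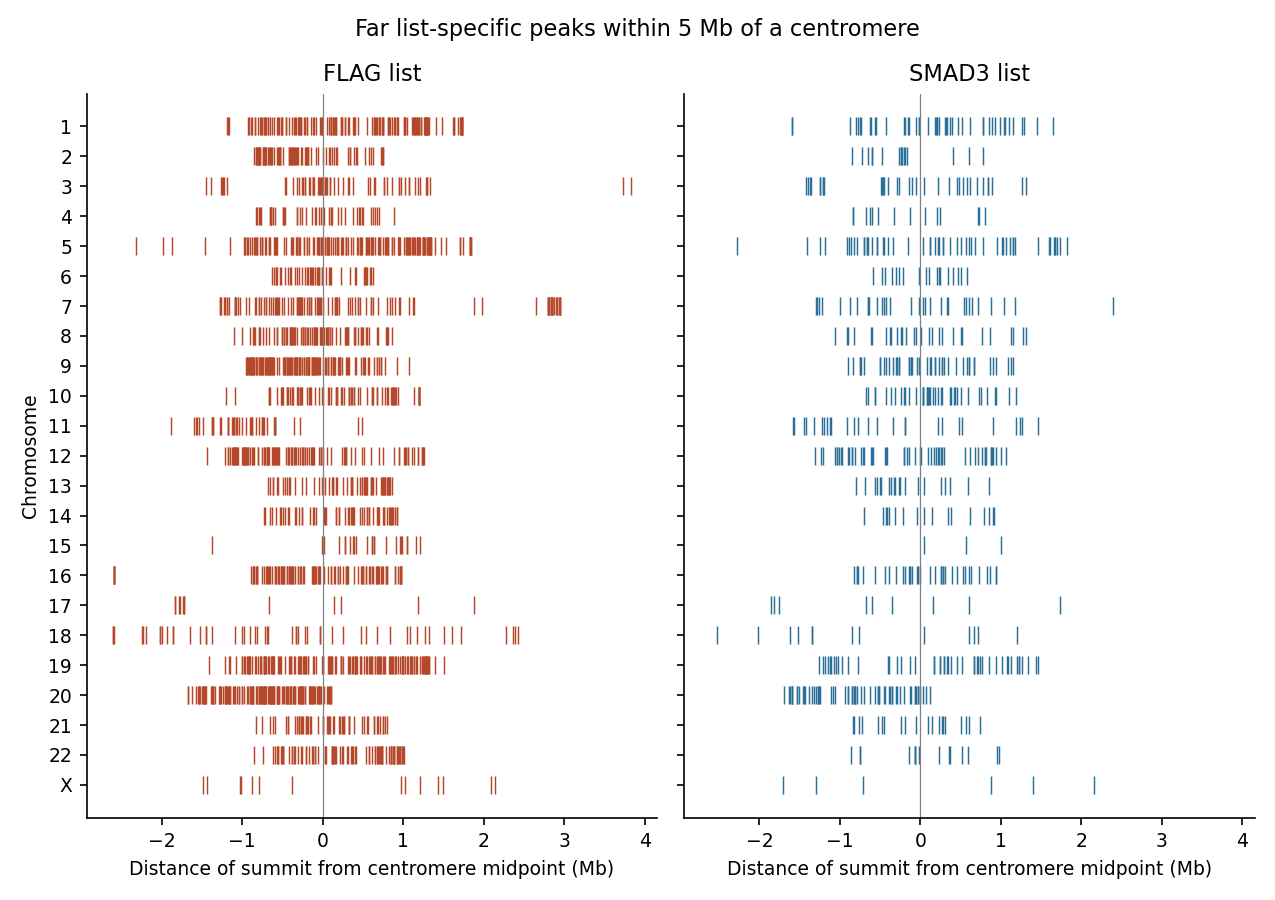
Position of every far list-specific peak within 5 Mb of a centromere, given as the distance of its summit from the approximate midpoint of the centromere in Mb (x axis) for each chromosome (y axis), 1 tick per peak, FLAG on the left and SMAD3 on the right. On most chromosomes the ticks form 1 main band, dense on chromosomes 5, 19 and 20 and thin on 15, 17 and X, and a separate group of FLAG ticks lies to the right on chromosome 7.

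A stretch with almost only FLAG peaks lay on chromosome 7, just beyond the centromeric interval proper. Between LOC101060796 and RNU6-417P (chr7:60993221-63011462), an interval singled out after its values were seen, the FLAG list held 23 far list-specific peaks and the SMAD3 list 1. That is a FLAG share of 95.8% (78.9 to 99.9%), against 73.9% (65.1 to 81.6%) in the neighbouring interval that holds the centromere, with 88 and 31 peaks. No overlapping pair was present in the first of them. Of the 23 FLAG peaks, 22 were more than 200 kb from any SMAD3 summit. Across the FLAG list only 79 of 1871 were, and in the SMAD3 list 18 of 671.

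Although no peak overlapped the other list, most had one of its peaks nearby. The median distance from a FLAG peak to the nearest SMAD3 summit was 18.1 kb (interquartile range 7.38 to 41.1 kb), and from a SMAD3 peak to the nearest FLAG summit 7.96 kb (3.69 to 18.4 kb). A summit of the other list stood within 10 kb of 611 FLAG peaks (32.7%) and 386 SMAD3 peaks (57.5%), and within 1000 bp of 31 FLAG peaks (1.66%) and 31 SMAD3 peaks (4.62%). The lists differ in size, so these shares are not comparable with each other. Of all peaks over 250 kb from genes, 157 in each list did overlap, which is 7.74% (6.62 to 8.99%) of 2028 FLAG peaks and 19% (16.3 to 21.8%) of 828 SMAD3 peaks. Within 250 kb of a gene, 0.849% of FLAG peaks and 0.993% of SMAD3 peaks overlapped. Far peaks are also more crowded. Near centromeres, neighbouring far list-specific summits of 1 list were a median of 14.3 kb (FLAG) and 44.2 kb (SMAD3) apart. Within 250 kb of a gene, peaks stood at 2.47 and 2.15 per Mb. How much of these distances and overlaps goes with crowding was not tested.

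The median far list-specific peak was taller than the median peak near genes. The median pileup of far list-specific FLAG peaks was 14 tags (interquartile range 10 to 22, highest 481). It was 8 tags (7 to 9, highest 482) for the 7006 list-specific FLAG peaks within 250 kb of a gene. With at most 1 tag kept at a position and fragments of 241 bp, pileup has a ceiling. Both FLAG highs lie at it, so the tallest FLAG peaks cannot be compared. In the SMAD3 list the medians were 10 tags (8 to 14.5, highest 107) and 7 tags (6 to 8, highest 293, 6083 peaks). The 157 far peaks that overlapped were taller again, with medians of 22 (FLAG) and 16 tags (SMAD3). The implied input background was higher as well, though a peak is listed only where its pileup exceeds that background. The median implied input background was 3.30 tags for far list-specific FLAG peaks against 1.61 near genes, and 1.96 against 1.43 in the SMAD3 list.

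Fold enrichment, which divides by that background, differed little when all backgrounds were pooled. It is given by class of background further below. Its median was 3.20 (2.69 to 3.78) for far list-specific FLAG peaks and 3.16 (2.77 to 3.56) near genes, and 3.38 (2.79 to 4.06) against 3.09 (2.79 to 3.53) in the SMAD3 list. None of the far list-specific peaks reached a fold of 10, while 98 FLAG peaks (5.24%) and 41 SMAD3 peaks (6.11%) reached 5. Of all other peaks, 3.50% (FLAG) and 0.540% (SMAD3) did. Widths were also close, with medians of 284 bp (FLAG) and 235 bp (SMAD3) against 270 and 215 bp near genes.

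**Figure D3:**
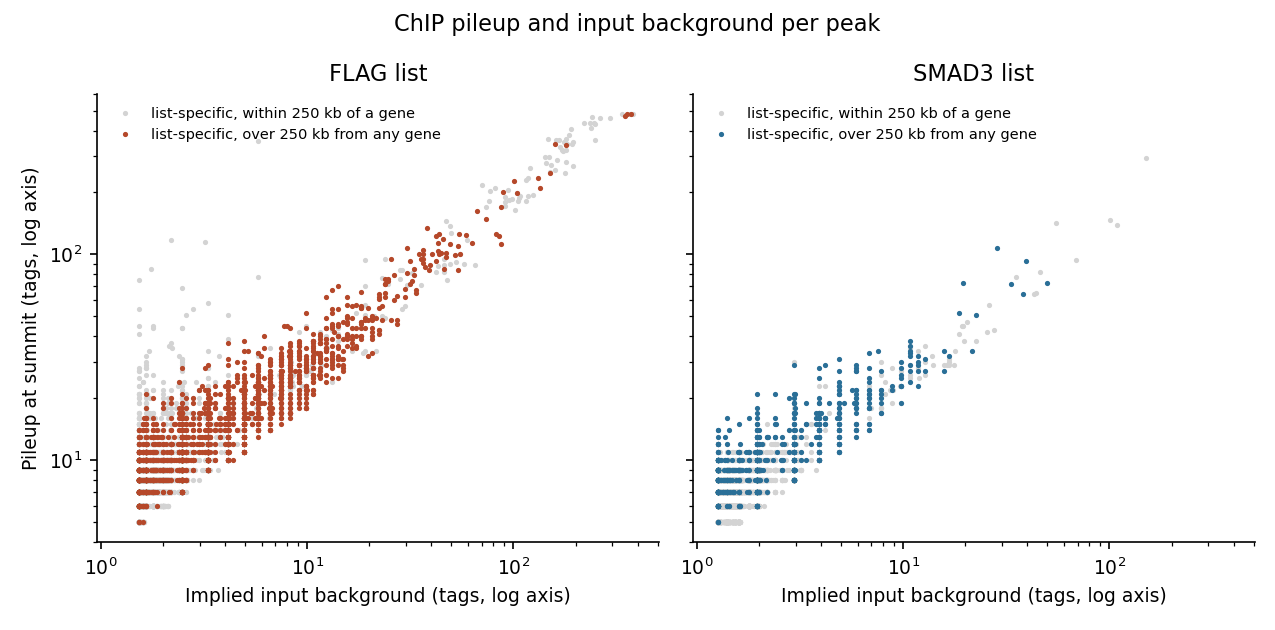
Pileup at the summit (y axis, tags, log scale) against the implied input background (x axis, tags, log scale) for each list-specific peak, with far peaks in colour and peaks within 250 kb of a gene in grey, FLAG on the left and SMAD3 on the right. Pileup climbs with background along 1 diagonal band in both lists, up to 481 tags for far FLAG peaks and 107 for far SMAD3 peaks. Each peak had to pass the authors' p cutoff against its background, which sets part of this climb.

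A q under 0.05 was held by 971 far list-specific FLAG peaks (51.9%, 49.6 to 54.2%), where 24.8% of all FLAG peaks on these chromosomes passed, and by 217 SMAD3 peaks (32.3%, 28.8 to 36%), where 7.54% passed. These are the authors' q values. At a stricter −log10 q of 5 or more, 241 FLAG peaks (12.9%) passed against a background of 6.48%, and 30 SMAD3 peaks (4.47%) against 1.05%. Seen from the other side, far list-specific peaks supplied 43.0% (40.9 to 45.1%) of the 2258 FLAG peaks with a q under 0.05 and 41.3% (37.0 to 45.6%) of the 526 SMAD3 peaks. Of list-specific peaks within 250 kb of a gene, 27.3% (FLAG) and 7.21% (SMAD3) had a q under 0.05 when within 5 Mb of a centromere, and 14.9% and 3.18% when farther from it.

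Since the implied input background was higher at these sites, the share with a q under 0.05 was also read within classes of it. Below 2 tags, 43.9% (39.5 to 48.3%) of 508 far list-specific FLAG peaks passed against 13.6% (12.7 to 14.5%) of 5498 peaks near genes. The SMAD3 shares there were 31.6% (26.9 to 36.6%) of 370 and 3.21% (2.77 to 3.70%) of 5669. The gap was therefore present where the implied input was low, a class that includes the floor. At 5 tags or more the intervals overlapped: 69.2% (65.3 to 72.9%) of 578 far FLAG peaks passed against 76.5% (69.7 to 82.4%) of 183 near genes, and 38.6% (28.4 to 49.6%) of 88 far SMAD3 peaks against 28.8% (17.8 to 42.1%) of 59. That highest class held 30.9% of far list-specific FLAG peaks and 2.61% of those near genes. Within each class the median fold was higher for far peaks than for those near genes. From the lowest class to the highest it was 3.68, 3.26 and 2.68 against 3.16, 2.94 and 2.27 in the FLAG list. In the SMAD3 list it was 3.72, 3.09 and 2.55 against 3.09, 2.79 and 2.16. The part that repeats and read placement had in these values was not tested.

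**Figure D4:**
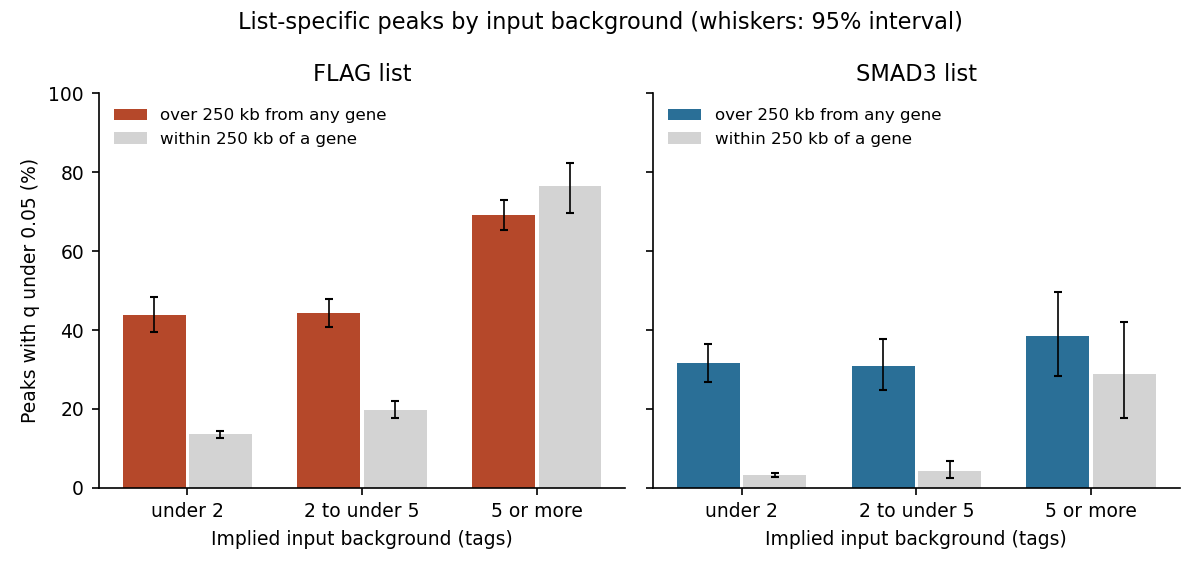
Share of list-specific peaks with a q under 0.05 (y axis, %) by class of implied input background (x axis, tags), for far peaks (coloured bars) and peaks within 250 kb of a gene (grey bars), FLAG on the left and SMAD3 on the right, with 95% Clopper-Pearson intervals. In the lowest class the shares were 43.9% and 13.6% in the FLAG list and 31.6% and 3.21% in the SMAD3 list, and in the highest class the intervals overlap.

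The share with a q under 0.05 varied among chromosomes. In the FLAG list it was 71.5% on chromosome 1, 69.7% on chromosome 10 and 68.4% on chromosome 19, but 18.4% of the 87 peaks on chromosome 8 and 18.2% of the 44 on chromosome 11. In the SMAD3 list it was 60.0% of 20 peaks on chromosome 13 and 56.4% of 55 on chromosome 5, but 2.86% of 35 on chromosome 8. Chromosome 8 was thus low in both lists. Median pileups there were 10 (FLAG) and 8 tags (SMAD3), against 25 and 18 on chromosome 10.

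The tallest far list-specific FLAG peak also had the highest implied input of its kind, 372 tags. The 5 tallest FLAG peaks lay side by side on chromosome 1 (chr1:125178901-125183886), 3607 to 3612 kb from EMBP1. Their pileups in order along the chromosome were 469, 481, 479, 342 and 345 tags, and the implied input was 348, 372, 354, 180 and 159 tags. The folds were 1.35, 1.29, 1.35, 1.90 and 2.16. The pileups of 469 to 481 tags lie near the ceiling given above, which can limit their folds. Among them lay 1 FLAG peak of 327 tags that did overlap a SMAD3 peak (181 tags, fold 1.32, −log10 q of 0.102), so the group is list-specific in part. These 5 were the highest in pileup, and 3 of them were also the FLAG peaks farthest from any gene. The 3 SMAD3 peaks farthest from any gene lay on chromosome 1 as well, 3159 to 3529 kb from EMBP1, with 18, 6 and 8 tags and no q under 0.05.

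The next tallest FLAG peaks were spread over 4 more chromosomes. On chromosome 5, 750 to 769 kb from EMB, which encodes the membrane glycoprotein embigin, chr5:49626771-49627058 had 249 tags at 1.65-fold and chr5:49645956-49646212 had 236 tags at 1.79-fold. On chromosome 17, chr17:23016242-23016632 had 228 tags at 2.25-fold, 311 kb from WEE1P2, a pseudogene of the mitotic kinase WEE1. Chromosome 10 (chr10:40556627-40556885, between CHEK2P5 and KSR1P1) followed with 210 tags at 1.55-fold, and chromosome 16 (chr16:38276156-38276870) with 201 tags at 2.24-fold. Across far list-specific FLAG peaks, pileup and implied input background had a Spearman coefficient of 0.88 over 1871 peaks and fold and background one of -0.53. Peaks had to pass a p cutoff against that background, which sets part of the first coefficient. Background enters the fold by construction, so both are descriptions.

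SMAD3 peaks were lower. The tallest, chr19:27183527-27183733, had 107 tags at 3.67-fold with a −log10 q of 23.1, 497 kb from LOC105372345, and a FLAG summit stood 7.18 kb away. The second, chr10:40441014-40441239, had 93 tags at 2.34-fold. Another chromosome 19 peak, chr19:26936787-26936992, had 73 tags at 3.60-fold on an input of 19.6 tags, with a −log10 q of 14.2. These peaks on chromosome 19 combined a tall pileup with a fold above the median of 3.38. By contrast, 3 neighbours on chromosome 20 (chr20:26602512-26605805) had 51, 64 and 73 tags at folds of 2.21, 1.66 and 1.45, and only the first had a q under 0.05. The others among the 10 tallest were 72 and 52 tags on chromosome 7, 38 tags on chromosome 21 and 36 tags on chromosome 10.

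Peaks with the highest fold were of moderate height on low implied input. In the FLAG list they were chr1:123850997-123851323 (8.35-fold, 28 tags), chr18:20483862-20484207 (8.31-fold, 21 tags), chr19:26761001-26761351 (7.53-fold, 20 tags), chr7:62350811-62351278 (7.42-fold, 37 tags) and chr1:122825866-122826213 (7.39-fold, 24 tags). The chromosome 18 peak lay 1082 kb from the nearest SMAD3 summit, and the chromosome 7 peak 454 kb from one. The other 3 had a SMAD3 summit within 5.55 to 24.6 kb. In the SMAD3 list the highest folds were chr19:26195621-26195897 (7.62-fold, 29 tags), chr17:24175814-24176097 (7.44-fold, 21 tags), chr1:123661306-123661580 (7.11-fold, 16 tags) and, both at 6.62-fold with 14 tags, chr13:16683585-16683801 and chr19:25079961-25080306. Each of these 5 had a FLAG summit between 5.88 and 23.8 kb away.

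The widest far list-specific FLAG peaks were 1846 bp (chr1:125079755-125081600, 25 tags), 1169 bp (chr16:38266178-38267346, 107 tags) and 1077 bp (the peak of 481 tags above). The widest SMAD3 peaks were 573, 562 and 532 bp, on chromosomes 4, 12 and 21, with 7, 8 and 17 tags and no q under 0.05.

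FLAG peaks were more often grouped than SMAD3 peaks, but they were also denser. There were 1871 against 671, over spans near centromeres that add up to 62.5 and 55.0 Mb. A denser list has more neighbours within a set distance, and how much of the difference goes with density was not tested. Another far list-specific peak of the same list had its summit within 10 kb for 1131 FLAG peaks (60.4%, 58.2 to 62.7%) and 162 SMAD3 peaks (24.1%, 21 to 27.6%). Among only the 671 FLAG peaks with the highest −log10 p, as many as in the SMAD3 list, the share was 35.9% (32.3 to 39.7%). That setting, chosen after seeing the data, changes both the number of peaks and their strength. Median spacing between neighbouring summits near centromeres was 14.3 kb (interquartile range 6.03 to 31.8 kb) in the FLAG list and 44.2 kb (19.8 to 91.4 kb) in the SMAD3 list. Groups were small, with 233 pairs, 137 groups of 3 or 4 peaks and 39 of 5 or more in the FLAG list, and 65 pairs, 10 groups of 3 or 4 and none larger in the SMAD3 list. Grouped FLAG peaks had a median of 15 tags and single ones 12, on implied inputs of 3.77 and 2.47 tags.

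The largest group was 9 FLAG peaks over 33.1 kb near EMB (chr5:49613065-49646212). Their pileups were 76, 84, 33, 45, 249, 26, 79, 123 and 236 tags, with folds of 1.44 to 3.05 on inputs of 11.3 to 151 tags, and 5 had a q under 0.05. Within the same stretch stood 4 SMAD3 peaks, none of which overlapped them. Peaks of both lists thus lay side by side in it.

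A group of 7 FLAG peaks on chromosome 7 (chr7:62340164-62354752) looked different. The pileups were 7, 8, 7, 10, 22, 37 and 16 tags and the folds 3.02, 3.56, 3.16, 4.35, 5.78, 7.42 and 6.52. The implied inputs ran from the floor of 1.53 to 4.12 tags. The SMAD3 list had no peak in it. Here the 3 tallest peaks also had the 3 highest folds. Other groups of 7 lay on chromosome 9 at chr9:43450375-43482319, with 10 to 31 tags, and chr9:44165234-44180484, with 12 to 26 tags. A group of 6 on chromosome 1 (chr1:124732233-124745753) had 27 to 102 tags at 2.26- to 3.28-fold, and all 6 had a q under 0.05.

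Among SMAD3 peaks the largest groups had 4 members. On chromosome 3 (chr3:91763748-91782994) they had 7, 14, 23 and 9 tags, and on chromosome 20 (chr20:27378439-27390187) 10, 8, 10 and 14 tags, with no q under 0.05 in either. Groups of 3 followed on chromosome 20 (the trio of 51 to 73 tags above), chromosome 10 (chr10:40679392-40682417, 15 to 27 tags) and chromosome 5 (chr5:47631944-47647898, 10 to 16 tags). Grouped SMAD3 peaks were less often past the q threshold than single ones, at 27.2% and 34.0%, while grouped FLAG peaks were more often past it, at 54.8% and 47.4%. These differences were not tested.

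Few far list-specific peaks stood in gene deserts on chromosome arms. Of 85 gene-free intervals of over 500 kb that lie more than 5 Mb from a centromere, 6 (7.06%, 2.63 to 14.7%) held a FLAG peak of the kind and 7 (8.24%, 3.38 to 16.2%) a SMAD3 peak, and none held both. Their parts more than 250 kb from genes add up to 16.2 Mb, so the density was 0.431 FLAG and 0.615 SMAD3 peaks per Mb. Within 250 kb of a gene, all peaks of the list counted, it was 2.47 and 2.15 per Mb over 2855 Mb. Of 36 such intervals close to a centromere, 27 held a far list-specific FLAG peak, 25 a SMAD3 peak and 25 both. Density over centromeric intervals is given only across the spans above, because those intervals may include positions without sequence.

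The 7 FLAG peaks in arm deserts were all low, with 6 to 8 tags, folds of 2.77 to 3.40 and a q above 0.05. Their implied input was 1.53 to 1.65 tags, at or close to the floor. A pair lay on chromosome 3 between LOC105377188 and LINC00971, with CADM2, a synaptic cell adhesion gene, 590 and 611 kb away. Single peaks lay on chromosome 4 (nearest coding gene TENM3, a teneurin of neuronal wiring, 1854 kb), chromosome 5 (chr5:105644413-105644673, 8 tags, EFNA5, an ephrin, 1732 kb), chromosome 11 (IFTAP, 509 kb) and chromosome X, toward NLGN4X, a neuroligin (972 kb), and toward TBX22, a T-box gene of palate development (271 kb). The other 3 FLAG peaks away from centromere models were those at the end of the chromosome 9 interval, 259 to 263 kb from CNTNAP3P4, with 25, 22 and 17 tags. Of these, the first and second had a q under 0.05 (−log10 q of 2.95 and 7.61).

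The 10 SMAD3 peaks in arm deserts were as low, with 5 to 9 tags and folds of 2.65 to 4.18. Their implied inputs were 1.27 to 1.55 tags, at or close to the floor. Of these peaks, 0 of 10 had a q under 0.05, which allows a share of up to 30.8%. On chromosome 8 stood 6 of them (60.0%, 26.2 to 87.8%), in 3 deserts. Of all 6972 SMAD3 peaks, 433 lay on that chromosome, and its share of desert territory was not measured. The interval takes the peaks as independent, which those in 1 desert may not be. A pair lay between COL22A1, a collagen gene, and KCNK9, a potassium leak channel gene (chr8:139187816-139188020 and chr8:139290530-139290824, 9 tags each). Another lay 436 kb from CSMD3 (8 tags), and 3 lay between PEX2, a peroxisome assembly gene, and PKIA, an inhibitor of protein kinase A (5, 6 and 7 tags). The other 4 were on chromosomes 2, 7, 11 and 12, with 6, 7, 6 and 7 tags. No FLAG peak of the kind lay in an arm desert of chromosome 8.

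The FLAG peaks nearest inside the limit of 250 kb had 7 and 8 tags (251 and 252 kb from a gene, on X and 5) and those nearest outside 13 and 8 tags (chromosomes 14 and 16). In the SMAD3 list these were 7 and 6 tags inside (chromosomes 3 and 2) and 11 and 7 tags outside (chromosomes 7 and 3).

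The gene-free intervals with a far list-specific peak numbered 40, of which 33 held FLAG peaks, 32 SMAD3 peaks and 25 both. Among the 73 protein-coding genes nearest to them on either side were 5 zinc finger genes (ZNF254, ZNF337, ZNF33B, ZNF37A and ZNF716), where zinc finger genes named ZNF are 2.59% of all protein-coding genes on these chromosomes. There were 4 olfactory receptor genes (OR11H1, OR11H12, OR4C12 and OR4C46) against 1.96%, and 2 potassium channel genes (KCNJ18 and KCNK9) against 0.481%. Of contactin, neurexin, neuroligin and teneurin genes, counted together, there were 2 (NLGN4X and TENM3) against 0.120%. None was a cyclin, a cyclin-dependent kinase, a SMAD, a member of the TGF-beta or BMP ligand families, a cadherin, a SOX, FOX or POU factor, a solute carrier, a keratin or a glutamate or GABA receptor. These absent families each make up only 0.140% (SMAD and TGF-beta) to 1.93% (solute carriers) of all protein-coding genes here. Their absence among 73 genes therefore says little. The families present had only 2 to 5 genes each, so their counts say little as well. The intervals beside NLGN4X and TENM3 each held 1 far list-specific peak, of 7 tags. Genes beside gene-free intervals without such a peak were not counted. All these counts describe distant neighbours and say nothing about regulation.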

How the data were processed

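The submitters' processing notes name Bowtie2, MACS2 2.2.7.1 and the hg38 build. Each ChIP was set against its own input, a p cutoff of 0.0065 and at most 1 tag at a position, per the file headers. Filtering of blacklisted or repeat regions is not given in the sources used here. For each peak the authors deposited the pileup signal in tags, the fold enrichment as a ratio over input, −log10 p, −log10 q and the length in bp. The headers state that q would not be computed, but the deposited −log10 q values run from 0 upwards and were used as they stand. Input tags after filtering numbered 20785894 (FLAG) and 17215727 (SMAD3).

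Here, distances from summits to the 59098 genes of any type on chromosomes 1 to 22 and X in a RefSeq table of GRCh38.p14, overlap, single-linkage groups of summits (10 kb) and exact intervals were computed with pandas 2.3.3, scipy 1.17.1 and numpy 2.4.6 under Python 3.11.15. They were checked on simulated data, and the overlaps against bedtools 2.31.1. Implied input background is (pileup + 1) / fold − 1. Approximate centromere positions were entered by hand from general knowledge of hg38, rounded to 100 kb. Sequences of these regions were not used here, so the planned motif counts were not made. No test between groups was run. The peaks and the settings were chosen with earlier results of these data known. Peaks and intervals named are, per list, the 10 highest in pileup, 5 in fold, 3 widest, 3 farthest from genes, 2 on each side of the limit, and the 5 intervals and 5 groups with most peaks (ties by summed pileup). Peaks away from centromeres were added afterwards. Alternatives covered the distance limit, gene types, overlap, q, pileup, input background and both windows. Results at a few loci are not reported here.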

Additional observations from a re-analysis of the deposited data

How the results depend on the processing

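Of 89 alternative values, 49 stayed within the interval of the value reported (for numbers of peaks, within 1.5 times it) and 40 moved; the cause of a move was not tested beyond what each setting changes. Values are FLAG, then SMAD3. With protein-coding genes only, peaks numbered 2963 and 1318, of which 74.8% and 61.4% were near a centromere, 48.9% and 17% grouped and 40.6% and 20% under a q of 0.05, with median pileups of 11 and 8. Keeping only peaks with a q under 0.05 left 971 and 217, with 99.8% and 100% near a centromere, 44.6% and 9.22% grouped and median pileups of 19 and 14. A distance limit of 100 kb gave 92.7% and 87.3% near a centromere, 57.8% grouped (FLAG) and 48.7% and 28.2% under a q of 0.05, and 500 kb gave 99.9% and 100% near a centromere. By the gene-free interval that holds the centromere the shares were 97.6% and 97%. Without peaks of 5 or more input tags, 45.9% of FLAG peaks were grouped, the FLAG median pileup was 11 and 44.2% had a q under 0.05. Grouped shares were 64.0% and 29.8% with overlapping peaks kept, 20% (SMAD3) with no peak of the other list within 1 kb, 15.2% and 5.07% within 2 kb, 97.9% and 89.9% within 100 kb, and 35.9% for the 671 FLAG peaks with the highest −log10 p, a setting chosen after seeing the data. A −log10 q of at least 5 was reached by 12.9% and 4.47%. Leaving out the 1% highest pileups moved no value. Low pileups, 5 to 9 tags for peaks on chromosome arms, limit what single peaks can show. No paired analysis was possible because each group has 1 library and the values come from no test.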

Other observations

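Chromosome Y was outside the rule. The FLAG list held 6 peaks there, of which 3 lay over 250 kb from any gene and overlapped no SMAD3 peak, with 8 to 11 tags. The SMAD3 list held 7 peaks on chromosome Y, and 0 of them lay that far from genes.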
